A study of Mus musculus with 27 samples.

Results

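The data described here compare mouse thyroid gland organoids (mTGOs) given 2 Gy of photon radiation with unirradiated mTGOs, both collected at day 7 of culture. They are 6 of the 27 RNA-seq libraries of the series, 3 at 2 Gy and 3 at 0 Gy, chosen by the dose and the day in their labels. mTGOs are multicellular structures that form from dissociated thyroid cells embedded in a basement membrane gel. All groups came from C57BL/6 mice aged 8 to 12 weeks, female by the study's methods, and no genetic change is named for any of them. All were grown in Matrigel in DMEM/F12 with EGF, FGF2, the ROCK inhibitor Y27632 and B27, so the unirradiated controls received the same growth factors and the same inhibitor. Irradiation took place at day 5, and the day 7 libraries were therefore made 2 days after the dose. The labels number the mice 1 to 3, the design text speaks of 4 mice, and the data columns carry the culture names mTG11, mTG12 and mTG14. Each culture gave 1 library at each dose, and the culture was the replicate (n = 3 per dose). Libraries of 4 Gy and 7 Gy at day 7, and of 0 Gy and 2 Gy at day 11, with 3 in each group, served to place the 2 Gy response among doses and days. Those of 4 Gy and 7 Gy were also part of the fit behind every test at day 7, which used all 12 day 7 libraries.

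Ionising radiation breaks DNA, and the kinases that sense the breaks stabilise the transcription factor p53. p53 switches on genes that hold the cell cycle, genes that promote cell death, genes that act on DNA and its nucleotides, and genes such as Mdm2 that restrain p53 itself. Irradiated cells can also transcribe interferon-stimulated genes, a group best known from the antiviral response, in which nucleic acid sensors act through transcription factors such as IRF3 and IRF7. Thyroid follicular tissue divides slowly in the adult gland, whereas organoid cultures hold dividing cells, in which transcripts of DNA replication and mitosis can be followed.

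The labelled tissue was checked against its markers before the doses were compared. Of 17 genes of thyroid function and identity, 11 reached 10 counts summed over the 12 day 7 libraries, the filter used for every test at day 7. The thyroid transcription factor Foxe1 stood at 29.0 ± 7.57 CPM (counts scaled to the library total; mean ± SD, n = 3) at 0 Gy, and Nkx2-1 at 9.91 ± 1.59 CPM. Thyroglobulin (Tg), the hormone precursor, was at 1.74 ± 0.568 CPM, and Pax8 and Slc5a5 did not reach the filter. Genes of stratified epithelium were abundant, with Krt13 at 4883 CPM and Krt5 at 4625 CPM at 0 Gy. The summed level of 10 fibroblast markers ranged from 98.9 to 197 CPM at 0 Gy and from 78.7 to 154 CPM at 2 Gy, that of 7 immune markers from 13.3 to 26.0 CPM and from 15.1 to 33.6 CPM, and that of 6 endothelial markers did not exceed 1.04 CPM in any of the 6 libraries. None of the 11 thyroid genes was called at 2 Gy, nor was any marker of C cells, parathyroid, multiciliated cells, adipocytes or skeletal muscle.

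The 6 libraries held between 2528866 and 4591357 counts. The 2 Gy library of culture mTG12 stood apart from the other 2 Gy libraries: it was the deepest of the 6, mitochondrial ribosomal RNA took 3.22% of its counts against 6.43% and 7.36% in the others, and its counts differed from theirs by a chi-square per degree of freedom of 12.5 and 12.6, against 4.23 between mTG11 and mTG14 and 4.62 to 7.05 between the 0 Gy libraries. The chi-square was taken on counts, so depth and abundant transcripts such as mitochondrial ribosomal RNA enter it. It is therefore not a separate sign of difference. In bulk samples, fewer cells of a type and less RNA per cell cannot be told apart.

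At 2 Gy, 139 of 19346 genes differed from 0 Gy (edgeR quasi-likelihood test with the culture as a block, Benjamini-Hochberg adjusted p under 0.05), which is 0.718% of the genes tested. Of these, 82 were higher at 2 Gy (0.424%) and 57 were lower (0.295%). At an unadjusted p under 0.05, 1057 genes were higher (5.46%) and 1046 lower (5.41%). Over all genes, 50.3% had a positive log2 fold change, and the median was 0.00. The counts of each gene list below stand against these shares. The called changes were mostly small, with a median log2 fold change of 0.82 for the genes that rose and -0.68 for those that fell, and 29 rises and 9 falls exceeded 2-fold. All 82 genes that rose were higher in each of the 3 cultures, and 56 of the 57 that fell were lower in each. The exception, the long noncoding RNA Gm33228, had 49.7 CPM in the 0 Gy library of mTG12 and 0 counts in the other 5 libraries, and it was singled out after its values were seen. For 75 of the genes that rose, all 2 Gy libraries lay above all 0 Gy libraries, and for 33 of those that fell they lay below, against 7.22% and 4.64% of all genes tested. The calls rest on these same libraries, so the shared direction and the separation describe the called genes and are no separate support.

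**Figure D1:**
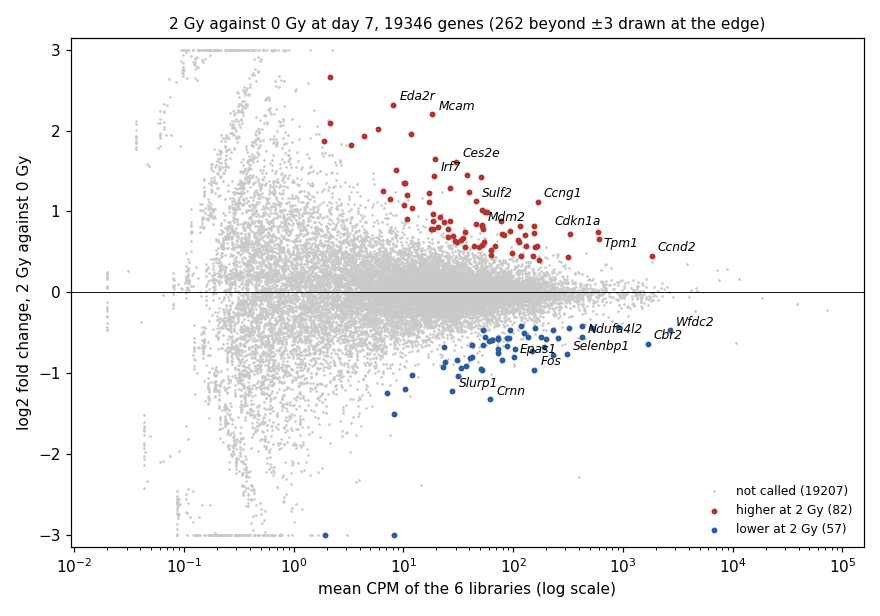
Log2 fold change of 2 Gy against 0 Gy at day 7 (vertical axis) against the mean CPM of the 6 libraries (horizontal axis, log scale) for 19346 genes, with the 82 genes that rose in red, the 57 that fell in blue and all others in grey. Most called genes lie above 10 CPM and within 2 log2 units of 0, and genes beyond 3 log2 units are drawn at the edge.

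The call count moved with the libraries used. It was between 60 and 173 when any one of the 6 libraries was left out, between 52 and 69 when a whole culture was left out, and 24 without the culture as a block. Without the 2 Gy library of mTG12 it was 68. Only 21 of the 139 genes kept their call in all 9 fits that left out a library or a culture, called leave-out fits here, and losses in 3 or more of the 9 are given beside the genes. The 13 genes that kept their call in every setting tried were Ccng1, Cdkn1a, Eda2r, Trp53inp1, Zmat3, Mcam, Ces2e, Sncg, Mgmt, Sulf2, Ptp4a3 and 9530053A07Rik, which rose, and Fos, which fell.

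Among these 13, the 5 listed targets of p53 open the account of the p53 response, and the promoters of Ccng1 and Cdkn1a are shown because both genes rose and both hold a near match to the p53 consensus. The sequences come from the RefSeq promoter table on GRCm38.p6, which runs from 250 bases before the transcription start to 50 after it, and capitals mark the match, which differs from the consensus at 1 position in each. The Ccng1 window lies at chr11:40755237-40755536 on the minus strand, with the match starting at position -195, and the Cdkn1a window at chr17:29090729-29091028 on the plus strand, at one of the annotated starts, with the match starting at position -51.
Ccng1: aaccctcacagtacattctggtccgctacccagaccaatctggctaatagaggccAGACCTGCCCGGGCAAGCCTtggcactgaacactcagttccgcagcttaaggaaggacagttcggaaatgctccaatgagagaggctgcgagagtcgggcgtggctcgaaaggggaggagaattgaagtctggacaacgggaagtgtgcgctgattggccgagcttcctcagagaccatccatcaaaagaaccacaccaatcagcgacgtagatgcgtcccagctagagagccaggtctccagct
Cdkn1a: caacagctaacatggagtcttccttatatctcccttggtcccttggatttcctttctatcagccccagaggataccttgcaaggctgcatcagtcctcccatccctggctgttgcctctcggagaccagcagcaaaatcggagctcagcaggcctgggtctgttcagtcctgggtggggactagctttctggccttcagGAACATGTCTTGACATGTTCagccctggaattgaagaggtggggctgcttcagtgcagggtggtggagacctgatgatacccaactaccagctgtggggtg
Matches to a p53 consensus, with up to 2 mismatches on either strand, were counted by gene. They were found for 106 of the 27025 genes with a promoter in the search (0.392%). Of the 33 genes of the p53 lists, 25 had a promoter in the search, and 2 of these had a match (8.0%). Of the 82 genes that rose, 66 had a promoter in the search. A match was found for 3 of these 66 (4.55%), which were Ccng1, Cdkn1a and Zfp365. Genes without a promoter in the search are not part of these shares. A match is a description of the sequence, and binding was not measured.

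The summed level of p53 targets was higher at 2 Gy in every culture. Of the 33 genes in 3 lists of p53 targets, 11 rose and none fell, against 0.424% of all genes that rose. The median log2 fold change of the 33 was 0.58, against 0.00 over all genes. At an unadjusted p under 0.05, 21 were higher, against 5.46% of all genes. For 19 of the 33, all 2 Gy libraries lay above all 0 Gy libraries, against 7.22% of all genes tested. The summed level of the lists was 2305, 2455 and 2418 CPM at 0 Gy in mTG11, mTG12 and mTG14, and 2919, 3261 and 3065 CPM at 2 Gy, and within a culture 26, 23 and 32 of the 33 genes were higher at 2 Gy. The transcript of p53 itself, Trp53, was at 52.9 ± 5.58 CPM at 0 Gy and 62.1 ± 14.6 CPM at 2 Gy, with a log2 fold change of 0.21 ± 0.13 (SE; adjusted p = 0.606).

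The genes of cell cycle arrest and p53 feedback held 6 of the 11 calls. Ccng1, which encodes the p53-induced cyclin G1, was at 88.1, 125 and 100 CPM in mTG11, mTG12 and mTG14 at 0 Gy and at 207, 275 and 212 CPM at 2 Gy. The groups did not overlap, and the log2 fold change was 1.12 ± 0.11 (SE; adjusted p = 8.53e-05). Cdkn1a, which encodes the CDK inhibitor p21, was at 223, 247 and 259 CPM and then at 370, 430 and 429 CPM, a log2 fold change of 0.72 ± 0.10 (adjusted p = 0.00126). Every 2 Gy library again lay above every 0 Gy library. Mdm2, the ubiquitin ligase that degrades p53, stood at 40.7, 40.7 and 28.4 CPM at 0 Gy and at 71.6, 63.4 and 64.2 CPM at 2 Gy (log2 fold change 0.83 ± 0.14, adjusted p = 0.00652). Its deposited counts were fractional in all 12 day 7 libraries, and it lost its call without the block (adjusted p = 0.074). Trp53inp1, a stress protein that promotes p53 activity, rose from 38.2 ± 3.49 to 77.7 ± 2.05 CPM, and Zmat3, an RNA-binding zinc finger protein, from 36.2, 34.5 and 39.6 CPM to 72.4, 86.9 and 65.7 CPM, both with a log2 fold change of 0.99. Plk2, a polo-like kinase, rose from 68.7 ± 11.3 to 119 ± 7.23 CPM (log2 fold change 0.76 ± 0.12). Among the 8 members of this list that were not called, Btg2, Psrc1, Tigar and Sesn2 had log2 fold changes between 0.56 and 0.82, whereas Gadd45a, Ppm1d, Plk3 and Sesn1 lay between -0.28 and 0.09.

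**Figure D2:**
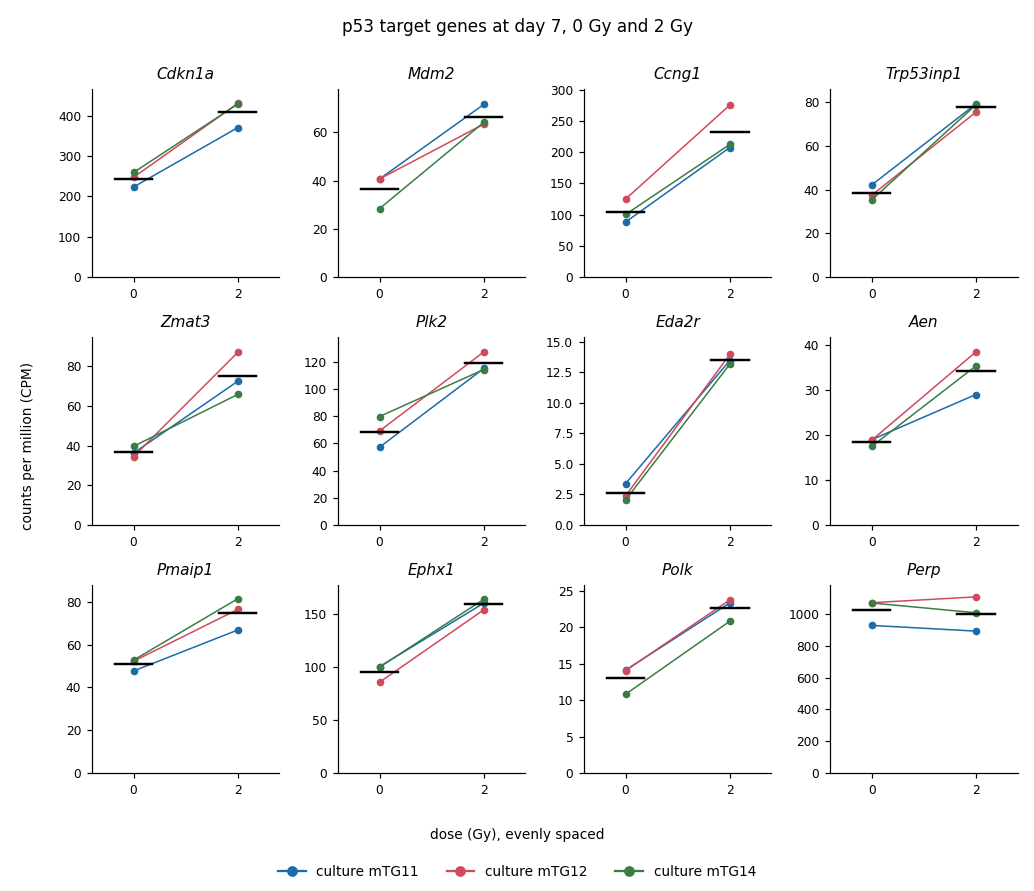
CPM of 12 p53 target genes in each day 7 library at 0 Gy and 2 Gy (horizontal axis), with a line for each of the 3 cultures and a black bar at the mean of each dose; each vertical axis starts at 0. In the 11 called genes every culture is higher at 2 Gy and the doses do not overlap, whereas Perp lies between 894 and 1109 CPM at both doses.

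Of the 12 cell death targets, 3 rose. Eda2r, a receptor of the tumour necrosis factor receptor family, had the largest log2 fold change of the 33 p53 targets, at 2.32 ± 0.25 (adjusted p = 0.00032). It was at 3.39, 2.39 and 2.06 CPM at 0 Gy and at 13.4, 13.9 and 13.1 CPM at 2 Gy, so the 2 Gy values were nearly the same in the 3 cultures. Aen, an apoptosis-enhancing nuclease, rose from 18.5 ± 0.842 to 34.3 ± 4.83 CPM, and Pmaip1, which encodes the BH3-only protein NOXA, from 50.9 ± 2.79 to 74.9 ± 7.42 CPM. The Pmaip1 call (log2 fold change 0.52 ± 0.11, adjusted p = 0.0424) was lost in 8 of the 9 fits that left out a library or a culture. The pro-apoptotic genes Bax (log2 fold change 0.39), Bbc3 (0.74) and Fas (1.32), and the death receptor gene Tnfrsf10b (0.83), did not pass the threshold, with adjusted p-values of 0.26, 0.24, 0.196 and 0.0694. Perp, the most abundant member, was at 1024 ± 82.1 CPM at 0 Gy and 1004 ± 108 CPM at 2 Gy, and the 95% interval of its log2 fold change ran from -0.21 to 0.09.

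Of the 7 targets in repair and metabolism, 2 rose. Ephx1, an epoxide hydrolase, went from 95.3 ± 8.35 to 159 ± 5.01 CPM, and Polk, a translesion DNA polymerase, reached 22.6 ± 1.58 CPM at a log2 fold change of 0.79 ± 0.16. Polk lost its call in all 9 fits that left out a library or a culture (largest adjusted p over its alternatives 0.199). Xpc, Ddb2, Rrm2b and Dcxr had log2 fold changes between -0.26 and 0.10, Gdf15, a stress-induced cytokine, had 0.80 ± 0.60 (adjusted p = 0.709), and none of these was called. Of 31 genes of DNA damage signalling and repair none was called, with a median log2 fold change of 0.10. At an unadjusted p under 0.05, 2 were higher, against 5.46% of all genes. Rad50, of the MRE11 complex that binds DNA ends, was at 86.2 ± 10.2 and 84.9 ± 11.4 CPM. Mgmt, which is in none of the lists and removes alkyl groups from guanine, was at 10.9, 20.7 and 14.2 CPM at 0 Gy and at 36.8, 37.2 and 40.5 CPM at 2 Gy (log2 fold change 1.29 ± 0.16, adjusted p = 0.000899). Ercc5, the XPG endonuclease of nucleotide excision repair, rose from 42.1 ± 7.92 to 66.2 ± 8.80 CPM and was picked from the called genes after its values were seen. Its call was lost in 6 of the 9 leave-out fits.

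The largest rises outside the p53 lists were named only where all 3 cultures were higher at 2 Gy, so that agreement was a condition. Mcam, the cell adhesion molecule CD146, was at 4.69, 5.83 and 8.49 CPM at 0 Gy and at 30.1, 28.1 and 32.9 CPM at 2 Gy, a log2 fold change of 2.20 ± 0.20 (adjusted p = 7.38e-05). The carboxylesterase gene Ces2e was at 17.2, 10.9 and 15.7 CPM and then at 48.2, 42.7 and 46.7 CPM (log2 fold change 1.62 ± 0.15). In both genes the lowest 2 Gy library was more than 2-fold above the highest 0 Gy library. Sncg, which encodes gamma-synuclein, rose from 20.4 ± 2.25 to 56.3 ± 7.91 CPM, and Atg9b, of the autophagy machinery, from 27.0 ± 2.71 to 75.8 ± 20.0 CPM. Ddit4l, an inhibitor of mTORC1 signalling, Rgs17, a regulator of G protein signalling, and Nme4, a mitochondrial nucleoside diphosphate kinase, rose from means of 5.82, 5.58 and 10.2 CPM to 15.1, 14.5 and 24.2 CPM. Nme4 lost its call in 6 of the 9 leave-out fits and Ddit4l in 3, both of them also without the 2 Gy library of mTG12, and Rgs17 and Nrp1 lost it without culture mTG12. Nrp1, a co-receptor for semaphorins and VEGF, rose in all cultures but most in mTG12, where it went from 29.2 to 89.8 CPM. Sulf2, a heparan sulfate sulfatase, and Ptp4a3, a phosphatase, singled out after their values were seen, had smaller fold changes but among the smallest p-values, with log2 fold changes of 1.12 ± 0.10 and 1.01 ± 0.11.

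Interferon-stimulated genes were higher in 2 of the 3 cultures. Of the 38 genes in the list, 4 rose and none fell, against 0.424% of all genes that rose. At an unadjusted p under 0.05, 23 were higher, against 5.46% of all genes, 37 had a positive log2 fold change, and the median was 0.92. The summed level of the list was 436, 249 and 254 CPM at 0 Gy in mTG11, mTG12 and mTG14, and 772, 248 and 559 CPM at 2 Gy. The median log2 ratio of 2 Gy to 0 Gy was 0.86 in mTG11 and 1.41 in mTG14, where 37 of 38 genes were higher in each, and 0.10 in mTG12, where 19 were higher and 18 lower. Each of these ratios compares 1 library with 1 other, so the difference between cultures was not tested. The 2 Gy library of mTG12 is the one that stood apart in depth and mitochondrial ribosomal RNA, and their part in the result was not tested. In mTG12 the list reached 573 CPM at 4 Gy, where 35 of 38 genes were above their 0 Gy level, and 622 CPM at 7 Gy, against 1243 and 2518 CPM in mTG11 and 552 and 1318 CPM in mTG14.

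Irf7, the transcription factor that amplifies the interferon response, was at 16.4, 7.42 and 6.43 CPM at 0 Gy and at 44.7, 12.2 and 27.8 CPM at 2 Gy (log2 fold change 1.44 ± 0.23, adjusted p = 0.00477). It rose within every culture, but the 2 Gy value of mTG12 lay below the 0 Gy value of mTG11. Ifi44, an interferon-induced cytoplasmic protein, was at 7.03, 3.45 and 3.60 CPM and then at 26.1, 7.62 and 21.9 CPM (log2 fold change 1.97 ± 0.40, adjusted p = 0.0281). Ifit1bl1, of the family of interferon-induced RNA-binding proteins, and Xaf1, a pro-apoptotic protein, had log2 fold changes of 0.93 ± 0.19 and 1.26 ± 0.26, and the doses overlapped in both. Irf7 lost its call in 3 of the 9 leave-out fits, Ifi44 in 6, Ifit1bl1 in 7 and Xaf1 in 9. The calls depended on the libraries: 0 to 2 of the 38 genes were called when 1 library was left out, none without culture mTG11 or without mTG14, and 6 without mTG12. None was called without the block.

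The ubiquitin-like modifier gene Isg15, singled out after its values were seen and shown because 3 overlapping response elements lie in its promoter, was at 18.6, 8.75 and 10.7 CPM at 0 Gy and at 47.2, 8.60 and 40.5 CPM at 2 Gy. It had a log2 fold change of 1.24 ± 0.37 and did not pass the threshold (adjusted p = 0.163). Lgals3bp, which encodes a secreted glycoprotein, was also lowest in mTG12 at 2 Gy, with 15.6, 6.36 and 4.37 CPM at 0 Gy and 55.8, 7.41 and 27.0 CPM at 2 Gy (log2 fold change 1.64 ± 0.34, adjusted p = 0.036), and lost its call in 7 of the 9 leave-out fits. Samd9l, the most abundant member of the interferon list, had a log2 fold change of -0.05 ± 0.15 (adjusted p = 0.967). In the promoters below, also from RefSeq on GRCm38.p6, capitals mark matches to the interferon-stimulated response element, taken as 2 copies of GAAA separated by any 2 bases, on either strand. The Isg15 window is at chr4:156200769-156201068 on the minus strand, with matches starting from position -78, and the Ifit1bl1 window at chr19:34601919-34602218 on the minus strand, with a match on the opposite strand starting at position -104.
Isg15: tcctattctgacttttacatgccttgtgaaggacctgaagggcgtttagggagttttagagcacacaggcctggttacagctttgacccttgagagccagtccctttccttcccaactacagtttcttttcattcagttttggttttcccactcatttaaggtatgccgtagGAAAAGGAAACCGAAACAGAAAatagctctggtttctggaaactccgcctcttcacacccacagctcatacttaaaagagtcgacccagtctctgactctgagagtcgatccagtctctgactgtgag
Ifit1bl1: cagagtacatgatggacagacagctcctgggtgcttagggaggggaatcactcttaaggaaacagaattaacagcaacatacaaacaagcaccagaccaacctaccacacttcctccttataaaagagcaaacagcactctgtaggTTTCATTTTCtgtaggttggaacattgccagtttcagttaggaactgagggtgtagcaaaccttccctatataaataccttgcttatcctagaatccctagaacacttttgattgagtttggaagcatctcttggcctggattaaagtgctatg
Counted by gene, 28 of the 38 genes of the list had a promoter in the search, and 16 of these had this element (57.1%). It was found for 1079 of the 27025 genes with a promoter in the search (3.99%). Of the 66 genes that rose and had a promoter in the search, 3 had the element (4.55%), namely Edn1, Ifit1bl1 and Plk2.

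**Figure D3:**
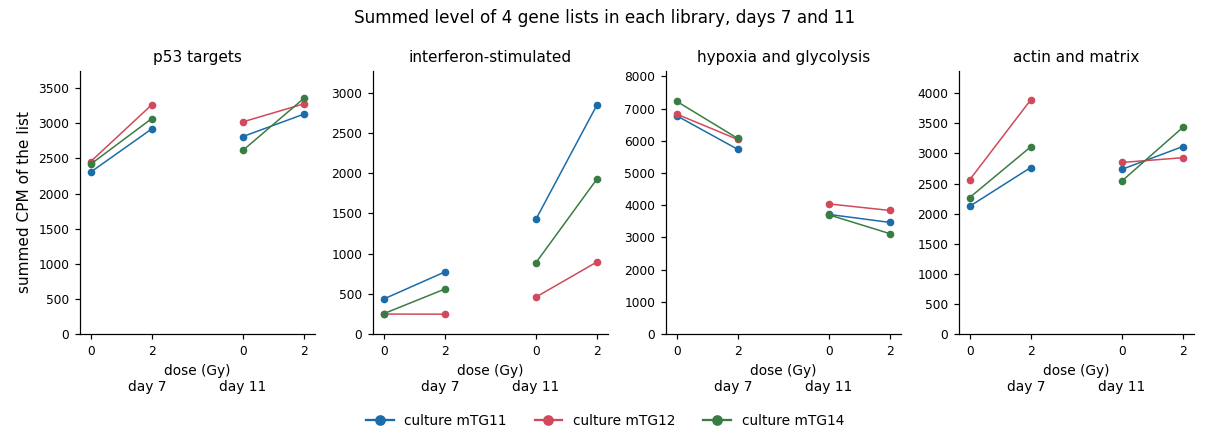
Summed CPM of 4 gene lists (panels) in each library at 0 Gy and 2 Gy, at day 7 and day 11, with a line for each culture. The p53 targets rise in all 3 cultures at day 7, the interferon-stimulated genes rise in mTG11 and mTG14 but not in mTG12 (249 and 248 CPM), and the hypoxia and actin lists, which were assembled after the values were seen, move in opposite directions.

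Upstream of the interferon-stimulated genes, 11 of 14 listed genes of nucleic acid sensing were tested. Sting1 fell and none rose, with 4 higher at an unadjusted p under 0.05, against 5.46% of all genes. Sting1, the adaptor of the cytosolic DNA sensor cGAS, was at 43.0, 22.8 and 27.0 CPM at 0 Gy and at 20.6, 10.9 and 20.8 CPM at 2 Gy (log2 fold change -0.86 ± 0.17, adjusted p = 0.0251). All 2 Gy values lay below all 0 Gy values, but the call was lost in 6 of the 9 fits that left out a library or a culture. Cgas, Ifih1 and Irf3 had log2 fold changes of -0.13, 0.41 and -0.11, and none was called. Of 14 genes of MHC class I antigen presentation, Tap1, a subunit of the peptide transporter, rose from 19.1 ± 4.23 to 31.8 ± 10.2 CPM (log2 fold change 0.68 ± 0.14, adjusted p = 0.0281), a call lost in 7 of the 9 leave-out fits. The heavy chain genes H2-K1 and H2-D1 each had a log2 fold change of 0.10, and near-identical copies in this family can share reads. Of 20 secreted factors and markers associated with senescence none was called. At an unadjusted p under 0.05, 5 were higher and 2 lower, against 5.46% and 5.41% of all genes. The most abundant, Igfbp3, had a log2 fold change of -0.30 ± 0.08 (adjusted p = 0.128).

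No transcript of DNA replication or mitosis was called at 2 Gy. Of 28 genes of mitosis 1 was lower at an unadjusted p under 0.05, against 5.41% of all genes, and the median log2 fold change was 0.01. Mki67, a marker of cycling cells, was at 130, 114 and 117 CPM at 0 Gy and at 111, 135 and 79.3 CPM at 2 Gy, and the 95% interval of its log2 fold change ran from -0.49 to 0.16. For Top2a, the topoisomerase that untangles chromosomes, the interval ran from -0.35 to 0.17. Within cultures, 24 of the 28 genes were higher at 2 Gy in mTG12, whereas 22 were lower in mTG11 and 19 in mTG14. The median log2 ratios were 0.30, -0.22 and -0.11. Each ratio, here and for replication, compares 1 library with 1 other, so the difference between cultures was not tested. The 2 Gy library of mTG12 is the one that stood apart in depth and mitochondrial ribosomal RNA. Of 30 genes of DNA replication none was called, and the median was 0.13. At an unadjusted p under 0.05, 3 were higher and 1 lower, against 5.46% and 5.41% of all genes. In mTG12 26 of the 30 were higher at 2 Gy, with a median log2 ratio of 0.42, against -0.04 in mTG11 and -0.01 in mTG14. Among 10 CDK inhibitor and D cyclin genes, Ccnd2, which encodes cyclin D2, rose with Cdkn1a, from 1819, 1397 and 1371 CPM to 2210.5, 2226 and 1924 CPM (log2 fold change 0.45 ± 0.08, adjusted p = 0.0131). The 2 Gy values of Ccnd2 lay above all 0 Gy values, but the call was lost in 6 of the 9 fits that left out a library or a culture. Ccnd1 had a log2 fold change of 0.30 ± 0.08 (adjusted p = 0.106).

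Fos and Egr1, which cells switch on within minutes of growth factor signals, fell at 2 Gy. They were 2 of 21 genes of the AP-1 and immediate early list, in which none rose, against 0.295% of all genes that fell. Fos, a subunit of the AP-1 transcription factor, was at 183, 216 and 211 CPM at 0 Gy and at 105, 97.7 and 119 CPM at 2 Gy, a log2 fold change of -0.96 ± 0.12 (adjusted p = 0.00109). All 2 Gy values lay below all 0 Gy values, and Fos kept its call in every setting. Egr1, a zinc finger transcription factor, went from 293, 194 and 224 CPM to 160, 163 and 154 CPM (log2 fold change -0.57 ± 0.13, adjusted p = 0.049), a call lost in 6 of the 9 leave-out fits. Klf6 and Klf4, the most abundant members, had log2 fold changes of 0.26 and -0.15 and were not called, and the median of the list was -0.12.

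Crnn had the largest fall among genes of at least 10 CPM. This cornulin gene of squamous epithelium was at 143, 25.2 and 96.2 CPM at 0 Gy and at 59.7, 10.5 and 37.1 CPM at 2 Gy (log2 fold change -1.33 ± 0.19, adjusted p = 0.00222). It fell in every culture by more than 2-fold, although the cultures differed more from each other than the doses did and the doses overlapped. Slurp1, a secreted keratinocyte protein, fell from 79.5, 8.22 and 31.9 CPM to 26.9, 6.10 and 15.3 CPM (log2 fold change -1.23 ± 0.27, adjusted p = 0.0478), a call that was lost in 6 of the 9 leave-out fits. Of the 27 cornified envelope and suprabasal genes tested, Crnn was the only one called and 20 had a negative log2 fold change, with a median of -0.19. The median log2 ratio of this list was -0.43 in mTG11 and -0.54 in mTG14 but 0.17 in mTG12, where 17 of the 27 genes were higher at 2 Gy. With 1 library per dose in a culture, this difference between cultures was not tested. None of 11 basal and stress keratins and none of 12 simple epithelial genes was called, and Krt5, Krt14 and Krt13 had log2 fold changes of 0.02, 0.03 and -0.23. Among the secretory mucosal defence genes, 2 of 17 tested fell, against 0.295% of all genes: Agr2, a disulfide isomerase of secretory cells (209 ± 64.1 to 148 ± 59.9 CPM), and Wfdc2, a protease inhibitor of epithelial secretions (3092 ± 873 to 2299.7 ± 758 CPM). Both fell within every culture, and both were lost in 6 of the 9 leave-out fits.

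**Figure D4:**
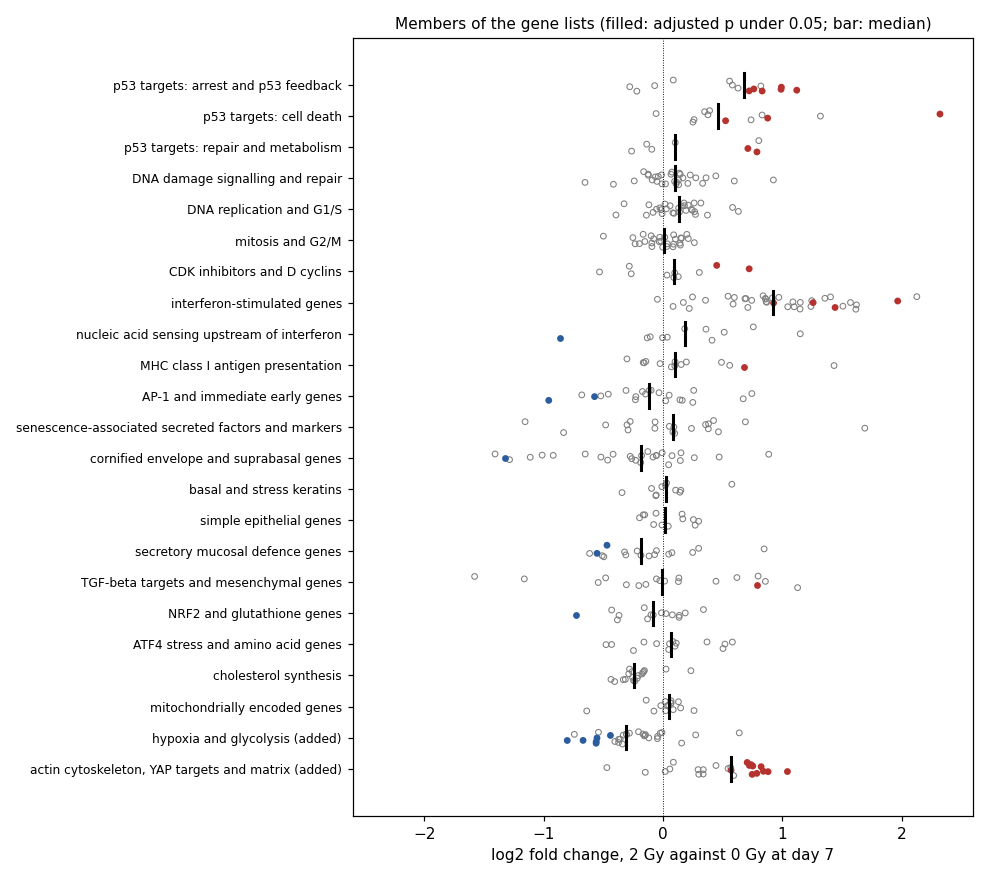
Log2 fold change of 2 Gy against 0 Gy at day 7 (horizontal axis) for each tested member of 23 gene lists (rows); filled circles are genes with an adjusted p under 0.05 and black bars are list medians. The p53, interferon and actin lists have medians between 0.10 and 0.92 and hold most of the filled circles above 0, and the mitosis list centres on 0.01. The actin and hypoxia lists were assembled after called genes had been seen, so their circles and medians are a description only.

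Other genes with large falls were Fgfr3, a fibroblast growth factor receptor (29.6 ± 3.05 to 15.9 ± 5.97 CPM), Sema4c, a semaphorin (log2 fold change -0.93 ± 0.16), Lgi2 (-1.04 ± 0.21), Cdc42ep2, a CDC42 effector (-1.19 ± 0.22), and Tfcp2l1, an epithelial transcription factor (-0.92 ± 0.18). Fgfr3 lost its call in 7 of the 9 leave-out fits, Lgi2, Cdc42ep2 and Tfcp2l1 in 6 each, among them the fit without the 2 Gy library of mTG12, and Sema4c in 4. The glutathione transferase genes Gstm1 and Gsta1 also fell. Gstm1 went from 224, 130 and 193 CPM to 147, 85.8 and 103 CPM (log2 fold change -0.73 ± 0.10, adjusted p = 0.00126), and Gsta1 had a log2 fold change of -0.96 ± 0.21 (adjusted p = 0.0478, lost in 7 of the 9 leave-out fits). Both belong to families with near-identical members, and the counts of both were fractional in several libraries. Gstm1 was the only 1 of 15 genes of the NRF2 and glutathione list to be called. Of 18 genes of cholesterol synthesis none was called and 16 had a negative log2 fold change, with a median of -0.24. At an unadjusted p under 0.05, 7 were lower, against 5.41% of all genes. In mTG11 and mTG14 17 of the 18 were lower at 2 Gy in each (median log2 ratios -0.38 and -0.39), whereas in mTG12 14 were higher (median 0.09). Here too 1 library is compared with 1 other, and the difference between cultures was not tested. Cyp51, a sterol demethylase, had -0.44 ± 0.10 (adjusted p = 0.0711). None of 14 tested genes of the ATF4 stress response and none of 15 mitochondrially encoded genes was called, with medians of 0.07 and 0.05.

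A list of genes known as targets of hypoxia-inducible factors and of glycolysis was assembled after called genes had been seen, so its counts are a description and support no statement about the group. Of its 30 genes, 6 fell, against 0.295% of all genes, and 27 had a negative log2 fold change. The summed level ranged from 6776 to 7224 CPM at 0 Gy and from 5736 to 6075 CPM at 2 Gy. Epas1, the transcription factor HIF-2 alpha, was at 173, 98.9 and 110 CPM and then at 107, 54.7 and 63.5 CPM (log2 fold change -0.80 ± 0.10, adjusted p = 0.000613). Ndufa4l2, a mitochondrial protein induced by low oxygen, fell from 432, 552 and 513 CPM to 315, 367 and 350 CPM (log2 fold change -0.56 ± 0.08), with no overlap. Egln3, a prolyl hydroxylase that marks HIF for degradation, Ndrg1, Aldoc, a glycolytic aldolase, and Car12, a carbonic anhydrase, had log2 fold changes between -0.67 and -0.44, and their calls were lost in 6 (Egln3, Car12), 8 (Aldoc) and 9 (Ndrg1) of the 9 leave-out fits. The abundant glycolytic genes Ldha and Aldoa had -0.17 and -0.16 and were not called.

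A list of actin cytoskeleton, YAP target and matrix genes, assembled in the same way and with the same limit, held 11 rises among 24 genes and no falls. Of all genes, 0.424% rose, but called genes were known when the list was made, so these shares are no test. Tpm1, a tropomyosin of actin filaments, was at 403, 483 and 419 CPM at 0 Gy and at 629, 862 and 746 CPM at 2 Gy (log2 fold change 0.75 ± 0.10, adjusted p = 0.00166). Col18a1, a basement membrane collagen, rose from 110 ± 14.3 to 199 ± 36.8 CPM, and Tnc, the matrix glycoprotein tenascin C, from 61.5 ± 9.33 to 103 ± 19.8 CPM. Ccn1, a secreted matrix protein, rose from 38.9 ± 8.08 to 68.1 ± 8.26 CPM and was the only 1 of 18 genes in the list of TGF-beta targets and mesenchymal genes to be called, and the median of that list was -0.01. Plau and Plaur, the urokinase and its receptor, had log2 fold changes of 0.75 ± 0.14 and 1.04 ± 0.20. The calls of Tnc and Plau were lost in 6 and that of Plaur in 7 of the 9 leave-out fits. The summed level of the 24 genes was highest in the 2 Gy library of mTG12 (3887 CPM, against 2765 and 3108 CPM in mTG11 and mTG14), and the median log2 ratio within a culture was 0.51, 0.67 and 0.54 in mTG11, mTG12 and mTG14. Of the 10 fibroblast markers, 1 was called, Fbln1, which fell from 76.3, 70.5 and 82.9 CPM to 53.8, 47.0 and 55.1 CPM, a call lost in 6 of the 9 leave-out fits.

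The question of how 2 Gy stands among the doses was addressed with the day 7 libraries of 4 Gy and 7 Gy. Against the same 0 Gy libraries, 1010 genes were called at 4 Gy (5.22%) and 2206 at 7 Gy (11.4%). Because these comparisons share their controls, their values are only set side by side. Of the 33 p53 targets, 11 rose at 2 Gy, 19 at 4 Gy and 22 at 7 Gy, with medians of 0.58, 0.75 and 1.05. Of the 38 interferon-stimulated genes, 4, 29 and 36 rose, with medians of 0.92, 1.80 and 2.69. None of the 28 mitosis genes fell at 2 Gy, 3 fell at 4 Gy and 22 at 7 Gy, with medians of 0.01, -0.26 and -0.76. In the added lists, 6, 19 and 24 of the 30 hypoxia and glycolysis genes fell, and 11, 16 and 15 of the 24 actin and matrix genes rose.

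**Figure D5:**
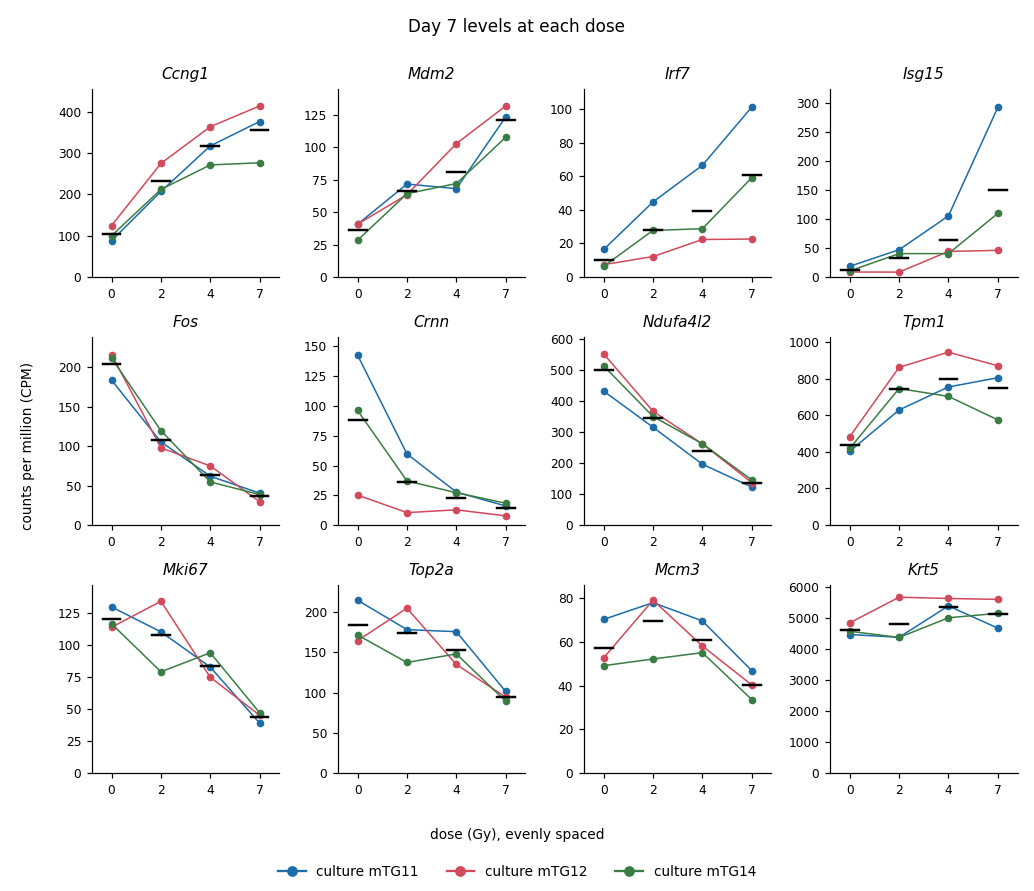
CPM of 12 genes in each day 7 library at 0, 2, 4 and 7 Gy (horizontal axis, evenly spaced), with a line for each culture and a black bar at the mean. At 2 Gy Ccng1, Mdm2 and Tpm1 lie above and Fos and Ndufa4l2 below every 0 Gy library, whereas Mki67, Top2a, Mcm3 and Krt5 overlap between these doses, and Mki67 and Top2a are lower at 7 Gy.

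The direct test of 4 Gy against 2 Gy called 0 of 19346 genes (0%) in edgeR, with 1201 at an unadjusted p under 0.05 and 14 called by DESeq2. It compares no 0 Gy library, although those libraries were part of the fit. The test of 7 Gy against 2 Gy called 608 genes (3.14%), 313 higher and 295 lower at 7 Gy. Higher at 7 Gy than at 2 Gy were 12 of the 33 p53 targets, among them Trp53inp1 (log2 fold change 0.90, adjusted p = 0.00019) and Mdm2 (0.89, adjusted p = 0.000728). The interferon-stimulated genes held 30 rises of 38, with Isg15 at a log2 fold change of 2.17 (adjusted p = 0.000455). Lower at 7 Gy were 20 of the 28 mitosis genes, with Mki67 at -1.30 (adjusted p = 0.00047), and 7 of the 30 replication genes, with Mcm3, a subunit of the replicative helicase, at -0.79 (adjusted p = 0.0016). Fos fell further, by 1.54 on the log2 scale (adjusted p = 3.82e-05), as did Ndufa4l2, by 1.33 (adjusted p = 9.98e-07). Tpm1 and Mgmt were not called between 7 Gy and 2 Gy, with log2 fold changes of 0.02 (adjusted p = 0.953) and 0.23 (adjusted p = 0.465).

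The same dose left 69 of 21928 genes called at day 11 (0.315%), with 52 rises and 17 falls, in a fit of the 24 libraries of days 7 and 11. None of the 33 p53 targets was called at day 11, and their median log2 fold change was 0.14. The summed level of the p53 targets was still higher at 2 Gy in each culture. It went from 2812 to 3130 CPM in mTG11, from 3021 to 3276 CPM in mTG12 and from 2616 to 3354 CPM in mTG14. Of the 38 interferon-stimulated genes, 17 rose at day 11, with a median of 1.02. Their summed level went from 1428 to 2847 CPM in mTG11, from 461 to 896 CPM in mTG12 and from 888 to 1927 CPM in mTG14. The comparisons at day 7 and day 11 use different libraries. The day 7 libraries were part of the day 11 fit, however, and the same cultures gave both days, so the calls are not independent. On both days 10 genes were called. They are 7.19% of the 139, against 0.315% called at day 11 among all genes tested. They are also 14.5% of the 69, against 0.718% called at day 7 among all genes tested. All 10 changed in the same direction: Irf7, Ifi44, Ifit1bl1, Tap1, Hspb1, its pseudogene Hsp25-ps1, Igsf9b and Zfp365 rose, and Fos and Gstm1 fell. Hspb1 encodes a small heat shock protein and went from 266 ± 20.7 to 370 ± 67.2 CPM at day 7, and its reads and those of Hsp25-ps1 may not be separable by the counting. At day 7 Hspb1 lost its call in 8 of the 9 leave-out fits, Hsp25-ps1 in 7, Zfp365 in 6 and Igsf9b in 4.

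The difference between the days was tested as the 2 Gy response at day 11 minus that at day 7. It was called for 2 of 21928 genes (0.00912%), with 1446 at an unadjusted p under 0.05. Mcam had a difference of -1.95 ± 0.29 (adjusted p = 0.0104), since at day 11 it was at 19.3, 18.2 and 17.6 CPM at 0 Gy and at 21.0, 25.1 and 20.8 CPM at 2 Gy. Ccng1 had a difference of -0.91 ± 0.15 (adjusted p = 0.0276), with 180, 175 and 141 CPM at 0 Gy and 190, 197 and 198 CPM at 2 Gy at day 11. The test called 0 to 3 genes when 1 library was left out (0 without the day 7 library of mTG11 or mTG12 at 0 Gy or of mTG14 at 2 Gy, or the day 11 library of mTG11 or mTG14 at 0 Gy), and 0 genes without the block. In both genes the unirradiated level was higher at day 11 than in any 0 Gy library of day 7. The other 32 p53 targets were not called in this test, and the median difference of the 33 was -0.35. For the 38 interferon-stimulated genes it was 0.15 and none was called.

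The called genes were placed on GRCm39 by symbol in GENCODE vM39, which located 133 of the 139, and 130 of these were protein coding. Ccng1 lies on chromosome 11 at 40639377 to 40646148, Cdkn1a on chromosome 17 at 29309936 to 29319701, Mdm2 on chromosome 10 at 117524780 to 117546730, Mcam on chromosome 9 at 44045504 to 44054025, Irf7 on chromosome 7 at 140842619 to 140846398 and Fos on chromosome 12 at 85520658 to 85524047. These positions and the promoter positions above are on different builds and were not converted. An annotated gene on the opposite strand overlapped 79 of the 133, and since the use of strand in the counting is not given in the sources used here, reads of such pairs cannot be told apart. Counts were fractional in at least 1 day 7 library for 95 of the 139.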

How the data were processed

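RNA of mTGOs was made into 3′ Smart3SEQ libraries and read as single 75 bp reads. Per the labels, STAR and edgeR were used on GRCm39, and the counting tool, annotation and handling of strand are not given in the sources used here. The authors deposited estimated counts per gene, without normalization. Only 56.3% of the nonzero values were whole, and values were rounded to whole numbers before testing, although whole counts had been planned for. Genes reaching 10 counts in total across a fit were tested with edgeR 4.0.16 (R 4.3.3; TMM, quasi-likelihood) with dose and culture as terms on the 12 day 7 libraries (6 residual degrees of freedom), and on 24 libraries for day 11. Methods were tested on simulated data without culture differences, which cannot show how the block or a library that stands apart affects the calls. The culture names pair the libraries: over 9457 genes, deviations from the dose means correlated within a culture at 0.32 to 0.43 and between cultures at -0.24 to -0.11. The 12 largest rises and falls (adjusted p under 0.05, at least 10 CPM, one direction in 3 cultures) and, from each list, up to 6 called and the 2 most abundant genes were named, although some are not reported here. Members and gene lists were chosen with earlier results of these data known. Alternatives included DESeq2 1.42.0. Each SE was derived from the test, as the absolute log2 fold change divided by the square root of the F statistic. Intervals were built from this SE. They reflect the spread left among the 12 day 7 libraries after the dose and culture terms, estimated in part across genes.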

Additional observations from a re-analysis of the deposited data

Results flagged for a closer look

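For 2 genes the 2 Gy response differed between day 11 and day 7 in the test of that difference (edgeR quasi-likelihood, 24 libraries). The response of Mcam at day 11 minus that at day 7 was -1.95 on the log2 scale (adjusted p = 0.0104), with a log2 fold change of 2.20 at day 7 and 0.25 at day 11, and it was higher at 2 Gy within every culture on both days. That of Ccng1 was -0.91 (adjusted p = 0.0276), with 1.12 at day 7 and 0.22 at day 11, and it too was higher at 2 Gy within every culture on both days. Neither call held without the culture block.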

How the results depend on the processing

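All 139 called genes kept their direction in every alternative, 13 kept their call in all of the 15 to 19 run for each gene, and 21 kept it in all 9 fits that left out a library or a culture. Without the replicate block, 24 genes were called at 2 Gy against 0 Gy, 160 at 7 Gy against 2 Gy, 0 of the interferon-stimulated genes and 0 in the test between days. Without a filter beyond 1 count, these were 578, 1151, 16 and 164, and 113 for 4 Gy against 2 Gy. With only the 6 compared libraries, 73 genes and 2 interferon-stimulated genes were called. DESeq2 called 14 genes at 4 Gy against 2 Gy and 4 between days. The test between days called 1 gene without TMM factors and 5 with the culture within day as replicate block. Among genes with whole counts only, chosen after seeing the data, 4 p53 targets and 2 interferon-stimulated genes were called. Leaving out a library or a culture gave 52 to 173 genes at 2 Gy against 0 Gy, 7 to 10 p53 targets and 0 to 6 interferon-stimulated genes. Leaving out a library gave 250 to 395 genes at 7 Gy against 2 Gy, 0 to 1 at 4 Gy against 2 Gy and 0 to 3 between days. Leaving out both libraries of a culture was also chosen after seeing the data. The cause of these shifts was not tested. At these depths 3 counts correspond to 0.653 to 1.19 CPM, so genes near 1 CPM give no reliable fold change.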

Other observations

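Several called genes belong to none of the lists, and they are given as values, picked after these had been seen. The aquaporin gene Aqp3, which encodes a water and glycerol channel, fell with a log2 fold change of -0.43. The enzymes Cad and Ctps, of pyrimidine synthesis, rose with log2 fold changes of 0.87 and 0.64. Fst, which encodes the activin antagonist follistatin, rose from 81.8 ± 1.90 to 148 ± 36.0 CPM, and the chemokine gene Ppbp from 471 ± 184 to 745 ± 207 CPM. Selenbp1 and Cbr2, both of them metabolic enzymes, fell with log2 fold changes of -0.77 and -0.64, Xbp1, a transcription factor of secretory cells, with -0.51, and Scd1, a fatty acid desaturase, with -0.42. Abcb1b, a drug exporter, rose from 6.57 ± 0.744 to 13.9 ± 2.33 CPM. Selenbp1 kept its call in all 9 fits that left out a library or a culture, whereas the others lost it in several: Fst and Ppbp in 4, Cbr2 and Abcb1b in 5, Cad and Xbp1 in 6, Aqp3 in 7, Ctps in 8 and Scd1 in 9.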
